A study of Mus musculus with 13 samples.

Results

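The T cell receptor alpha gene segments are the variable (Trav), joining (Traj) and constant (Trac) genes from which the alpha chain of the T cell receptor is assembled. They were taken from the gene table as every gene annotated as a T cell receptor gene or pseudogene whose symbol starts with Trav, Traj or Trac. This gave 189 of 47937 genes, made up of 128 Trav, 60 Traj and 1 Trac. Of these, 20 Trav and 9 Traj were annotated as pseudogenes, and 10 Trav carried the suffix -dv of segments that also serve the delta chain. RNA was sequenced from DN3 (CD44low CD25high) and DN4 (CD44low CD25low) thymocytes, 2 consecutive stages of CD4 and CD8 double negative (DN) thymocytes, freshly sorted from untreated C57BL/6 mice aged 6 weeks. Control mice were WT;Lck-Cre+ (Wt) and the others were Opa1fl/fl;Lck-Cre+ (labelled KO), so both genotypes carried Cre driven by the promoter of Lck, a T lineage kinase. Opa1 encodes a mitochondrial inner membrane fusion protein, and its floxed exons are removed only in cells in which that Cre has acted. The 13 libraries came from 7 mice: 3 KO mice (KO45, KO49, KO51) and 3 Wt mice (Wt05, Wt46, Wt48) gave both stages, and a further Wt mouse (Wt40) gave DN4 only.

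The alpha locus lies on one strand, with the V segments first, then the delta D, J and C genes nested inside the locus, then the J array and the constant gene. DN3 cells rearrange the beta locus, and a successful beta chain, paired with the surrogate pre-T alpha chain, drives the passage to DN4 and on to the CD4 CD8 double positive (DP) stage, where alpha V to J joining takes place. Before joining, the unrearranged J array is transcribed from the T early alpha promoter next to Traj61, under control of an enhancer downstream of Trac, and each V to J joining on an allele deletes the delta genes on it.

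In the GENCODE M21 annotation of GRCm38 (the same assembly as mm10, the build in the submitters' processing notes), all members lay on the plus strand of chromosome 14 between positions 52427928 and 54224206. The Traj array took positions 54155005 to 54218842 of that range. Exon lengths of the Trav ran from 155 to 595 bases (median 359) and those of the Traj from 29 to 72 bases (median 61), while Trac had 935 bases. The sequences of some segments that the values below turn on are shown from the GENCODE transcripts, 5′ to 3′ on the plus strand. For the J segments the capitals mark the codons of FGXG, the phenylalanine, glycine, any residue, glycine motif that starts the fourth framework of a receptor chain. Traj61 and Traj59 stand at the start of the array, and Traj2 stands near its end. Traj18 is the joining segment of invariant natural killer T (NKT) cells.
Traj61: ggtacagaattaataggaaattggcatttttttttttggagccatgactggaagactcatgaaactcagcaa
Traj59: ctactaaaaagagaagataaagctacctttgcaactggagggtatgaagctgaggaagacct
Traj58: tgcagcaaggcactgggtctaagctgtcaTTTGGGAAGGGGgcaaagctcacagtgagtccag
Traj18: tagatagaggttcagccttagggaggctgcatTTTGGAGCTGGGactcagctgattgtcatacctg
Traj2: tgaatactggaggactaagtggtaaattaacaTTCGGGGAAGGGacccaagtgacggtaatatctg
For the V segments and Trac no capitals are used. Trav17 and Trav18 are shown by their last 60 bases because their levels were lower in DN4 than in DN3, and Trav11 and Trav11d because they share almost all of their sequence. The first 60 bases of Trac are what a spliced alpha transcript continues with after its J segment.
Trav17: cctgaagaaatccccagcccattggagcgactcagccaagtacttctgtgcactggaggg
Trav18: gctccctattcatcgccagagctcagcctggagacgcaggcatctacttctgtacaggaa
Trav11: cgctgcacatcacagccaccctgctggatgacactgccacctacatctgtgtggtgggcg
Trav11d: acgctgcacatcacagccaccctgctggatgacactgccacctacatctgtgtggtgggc
Trac: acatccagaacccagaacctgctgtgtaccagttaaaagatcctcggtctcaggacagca
An FGXG motif, searched on the plus strand in any frame, was found in 43 of 60 Traj, namely 42 of 51 annotated as genes and 1 of 9 pseudogenes. The same motif stood in the first 60 bases of 0.7469% of 141515 GENCODE transcripts. The first 3 segments of the array, Traj61, Traj60 and Traj59, did not contain it, and Traj58, the fourth, did.

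Library totals ran from 5926848 to 14148661 counts. Levels are given as CPM, counts scaled to a common library size, on library totals scaled by TMM, a factor that evens out composition between libraries. The DN3 library of mouse Wt05 stood apart, with a TMM factor of 0.577 against 0.995 to 1.10 in the other 12. Opa1 itself lay at 88.4 to 93.7 CPM in the DN3 KO and 90.9 to 112 CPM in the DN3 Wt libraries, and at 76.9 to 87.8 and 85.0 to 93.6 CPM in DN4. These are counts over the whole gene, which do not show whether the floxed exons were lost, and they do not separate the genotypes, so the libraries are called KO by their labels only.

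Trac, the constant region that every alpha transcript carries, was counted in all 13 libraries and was far higher in DN4 than in DN3 in each mouse. The DN3 Wt libraries held 21, 69 and 66 counts (6.14, 6.10 and 7.26 CPM for Wt05, Wt46 and Wt48), and the DN3 KO libraries held 139, 113 and 129 counts (11.4, 15.0 and 12.6 CPM for KO45, KO49 and KO51). The DN4 Wt libraries held 2020, 2888, 3030 and 680 counts (168, 281, 239 and 68.9 CPM for Wt05, Wt40, Wt46 and Wt48), and the DN4 KO libraries held 3846, 1948 and 1518 counts (275, 134 and 151 CPM). No DN4 library overlapped any DN3 library, and within DN4 the lowest library was Wt48 and the highest Wt40. Trac rose by 4.83 ± 0.50 on the log2 scale (SE, n = 4 and 3) from DN3 to DN4 in Wt (adjusted p = 4.35e-04, edgeR's quasi-likelihood test). In KO it rose by 3.82 ± 0.29 (n = 3 and 3; adjusted p = 4.31e-04, the same test). Within single mice the DN4 level was 27.4, 39.1 and 9.49 times the DN3 level in Wt05, Wt46 and Wt48, and 24.0, 8.96 and 11.9 times in KO45, KO49 and KO51, so the genotypes overlapped. Both calls held with the mouse as a block (log2 change 4.40 in Wt, 3.78 in KO) and without any single library.

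**Figure D1:**
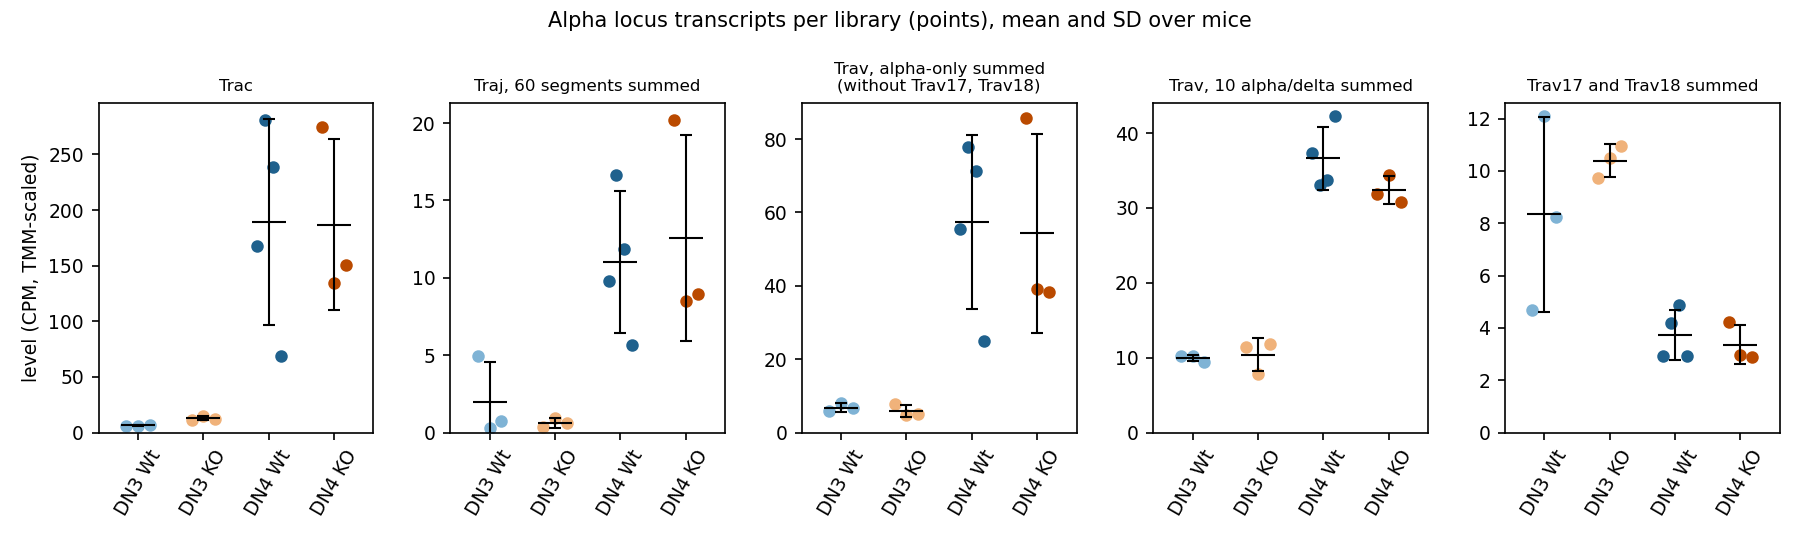
Level (CPM, linear axes from 0) of Trac, of the summed Traj, and of 3 sums of Trav in each library (points), by stage and genotype, with the mean (bar) and SD (whiskers) over 3 or 4 mice; the panels have different scales. DN4 libraries lie above all DN3 libraries for Trac, Traj and the first 2 Trav sums. For Trav17 and Trav18 the DN3 libraries are the higher ones in each mouse, with the DN3 library of Wt05 at 4.68 CPM within the DN4 range.

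The DN4 libraries also held transcripts of genes that mark other cells, in amounts that differed between libraries. As background for the calls below, 13.4% of all genes tested were called higher and 9.43% lower in DN4 in Wt, and 11.2% and 7.34% in KO. All 5 genes of a DN3 list (Il2ra, Ptcra, Dtx1, Hes1, Erg) passed the filter, with a sum of 929 to 1714 CPM in DN3 and 92.1 to 138 CPM in DN4, and the DN4 list (Cd2, Cd7) summed to 7.69 to 25.1 CPM in DN3 and 153 to 242 CPM in DN4, as the sorts are labelled. Markers of DP and immature single positive cells (6 genes) summed to 789 to 1148 CPM in DN3, 509 to 2518 CPM in DN4 Wt and 1218 to 4232 CPM in DN4 KO, with 3 of 6 called higher in DN4 in each genotype. Among them the coreceptor gene Cd8a lay at 11.3 to 38.4 CPM in DN3 and at 237, 756, 545 and 78.5 CPM in the DN4 libraries of Wt05, Wt40, Wt46 and Wt48, and at 1131, 325 and 434 CPM in those of KO45, KO49 and KO51. Cd4 lay at 3.63 to 9.96 CPM in DN3 and from 18.5 CPM (Wt48) to 670 CPM (KO45) in DN4. B cell markers (6 genes) summed to 284 to 424 CPM in DN3 and 880 to 4903 CPM in DN4, the highest in Wt48, and all 6 were called higher in DN4 in both genotypes. Gamma delta T cell markers (4 genes in the table) summed to 370 to 527 CPM in DN3 and 502 to 1477 CPM in DN4, again the highest in Wt48, with 3 of the 3 tested called higher in Wt and 1 in KO. Lists for NKT and innate-like T cells (5 genes) summed to 4.52 to 12.9 CPM in DN3 and 116 to 316 CPM in DN4, with 4 of 5 called higher in Wt and 5 in KO. Mature T cell markers (6 genes) summed to 385 to 866 CPM in DN3 and 472 to 1378 CPM in DN4, and 4 of the 6 were called higher in DN4 in each genotype (median log2 change 4.83 in Wt and 3.92 in KO, against -0.03 and -0.02 over all genes tested). Myeloid markers (4 genes) summed to 22.0 to 31.3 CPM in DN3 and 10.8 to 17.5 CPM in DN4, and 1 of the 2 tested (Lyz2) was called lower in DN4 in both genotypes. Erythroid markers (3 genes) summed to 0 to 1.06 CPM in DN3 and 0.796 to 5.17 CPM in DN4, and the 1 tested (Hbb-bs) was called higher in Wt, while none passed the filter in KO. Mature T and NKT cells carry Trac transcripts too. Other cells in the sort and DN4 thymocytes that express these genes themselves cannot be told apart here, and the part of either in the levels of the alpha segments was not tested. In such bulk libraries fewer cells of a type cannot be told apart from less RNA per cell.

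**Figure D2:**
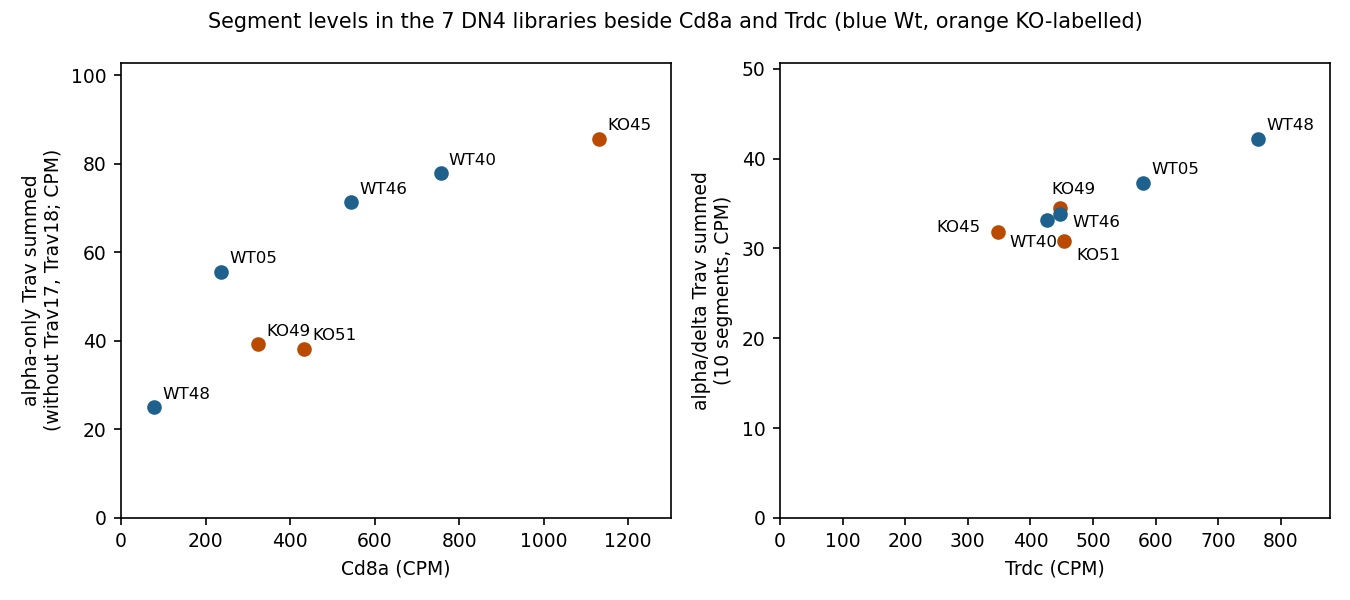
Summed CPM of 116 alpha-only Trav (all Trav without the -dv segments, Trav17 and Trav18) against Cd8a (left), and of the 10 alpha/delta Trav against Trdc (right), in the 7 DN4 libraries, linear axes from 0. The library of Wt48 is lowest on both axes on the left and highest on both on the right.

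Among the 7 DN4 libraries, the one with the least Cd8a had the lowest level of alpha-only V segments and the one with the most Cd8a the highest, while the 5 between them did not keep that order. The alpha-only Trav other than Trav17 and Trav18 summed to 24.9 CPM in Wt48, which had the least Cd8a, and to 85.6 CPM in KO45, which had the most. They lay at 55.6, 77.8 and 71.3 CPM in Wt05, Wt40 and Wt46 and at 39.2 and 38.2 CPM in KO49 and KO51. Wt05 thus lay above KO49 and KO51, which had more Cd8a. The -dv Trav summed to 42.2 CPM in Wt48, the highest of all, and to 30.8 to 37.3 CPM in the other 6. Trdc, the delta constant gene, lay at 764 CPM in Wt48 and at 349 CPM in KO45, its lowest DN4 library, with 427 to 580 CPM in the others. These 7 values share their libraries and scaling, so they are given as a description with no test.

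The Traj segments, short exons that are counted when a read covers the J of a spliced alpha transcript or an unspliced transcript of the array, were almost silent in DN3. In DN3 Wt the 60 segments together held 17, 3 and 7 counts in Wt05, Wt46 and Wt48 (4.97, 0.265 and 0.770 CPM), and in DN3 KO 4, 7 and 6 counts (0.329, 0.930 and 0.588 CPM). In DN4 they held 56 to 171 counts in Wt (9.81, 16.7, 11.9 and 5.67 CPM in Wt05, Wt40, Wt46 and Wt48) and 90 to 283 counts in KO (20.2, 8.49 and 8.95 CPM in KO45, KO49 and KO51). All DN4 libraries lay above all DN3 libraries, the nearest pair being Wt48 in DN4 and Wt05 in DN3. The mean of DN3 Wt was 2.00 ± 2.58 CPM (SD, n = 3) and without the low-factor library of Wt05 it was 0.517 CPM. With so few counts no Traj passed the filter on low counts in either stage comparison, and no single Traj could be called. By direction alone, in levels from counts pooled over each group, 53 of the 55 Traj counted in Wt were higher in DN4. In KO 51 of the 52 counted were higher, against 52.2% (Wt) and 52.5% (KO) of all genes with a count.

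Along the array, DN4 transcripts were most abundant at its ends. In DN4 Wt the first 10 segments (Traj61 to Traj52) summed to 2.92 ± 0.73 CPM and the last 10 (Traj11 to Traj1) to 3.52 ± 1.65 CPM (SD, n = 4), while the 4 blocks of 10 between them lay at 0.701, 1.19, 0.992 and 1.69 CPM. In DN4 KO the first and last blocks lay at 3.44 ± 1.61 and 5.19 ± 3.66 CPM (n = 3), and those between at 0.758, 0.961, 1.06 and 1.147 CPM. The first block rested on Traj61, Traj60, Traj59 and Traj58, with 42, 22, 39 and 23 of its 130 counts in DN4 Wt. In DN4 KO these segments held 32, 25, 40 and 20 of its 135 counts. The KO value of the last block rested on KO45, which held 129 of its 202 counts (9.22 CPM, against 2.07 and 4.28 CPM in KO49 and KO51), and without KO45 the last block lay at 3.17 CPM and the first at 2.52 CPM. At the 5′ end, Traj61, a pseudogene beside the T early alpha promoter, had 4, 0 and 1 counts in DN3 Wt and 0, 0 and 1 in DN3 KO, and 12, 11, 13 and 6 counts in DN4 Wt and 14, 13 and 5 in DN4 KO. Traj59, the most counted Traj (84 counts in all), had 0, 0, 1 and 1, 1, 2 counts in DN3 Wt and KO and 10, 11, 11, 7 and 16, 10, 14 counts in DN4. It thus had more counts in every DN4 library than in any DN3 library, although it lacks the FGXG motif. At the 3′ end, Traj2 had no count in any DN3 library and 9, 7, 12 and 2 in DN4 Wt and 21, 4 and 9 in DN4 KO. Its DN4 level from the counts pooled over the group was at least 5.31-fold higher in Wt and at least 8.79-fold higher in KO than the floor of 3 counts over the pooled DN3 group. The KO bound leaned on KO45, with 21 counts against 4 and 9 in KO49 and KO51. Traj1, a pseudogene of 29 bases, had 2 to 5 counts in DN4 Wt and 27, 7 and 6 in DN4 KO, so that 27 of its 40 DN4 KO counts were in KO45.

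The share of Traj counts on Traj61 to Traj49, the stretch from the T early alpha promoter to a further promoter near Traj49, was 29.8 ± 9.91% in DN4 Wt (SD, n = 4) and 30.7 ± 2.41% in DN4 KO (n = 3). In the DN4 library of Wt48 it was 44.6% (25 of 56 counts; 95% Wilson interval 32.4 to 57.6%), and without that library the Wt mean was 24.9%. In DN3 the shares were 54.2 ± 11.95% in Wt and 54.4 ± 25.5% in KO, from 27 and 17 counts in all, too few for a comparison. In DN4 most counts of this stretch lay on Traj61 to Traj58, and Traj49 itself had 0 to 4 counts in each library.

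**Figure D3:**
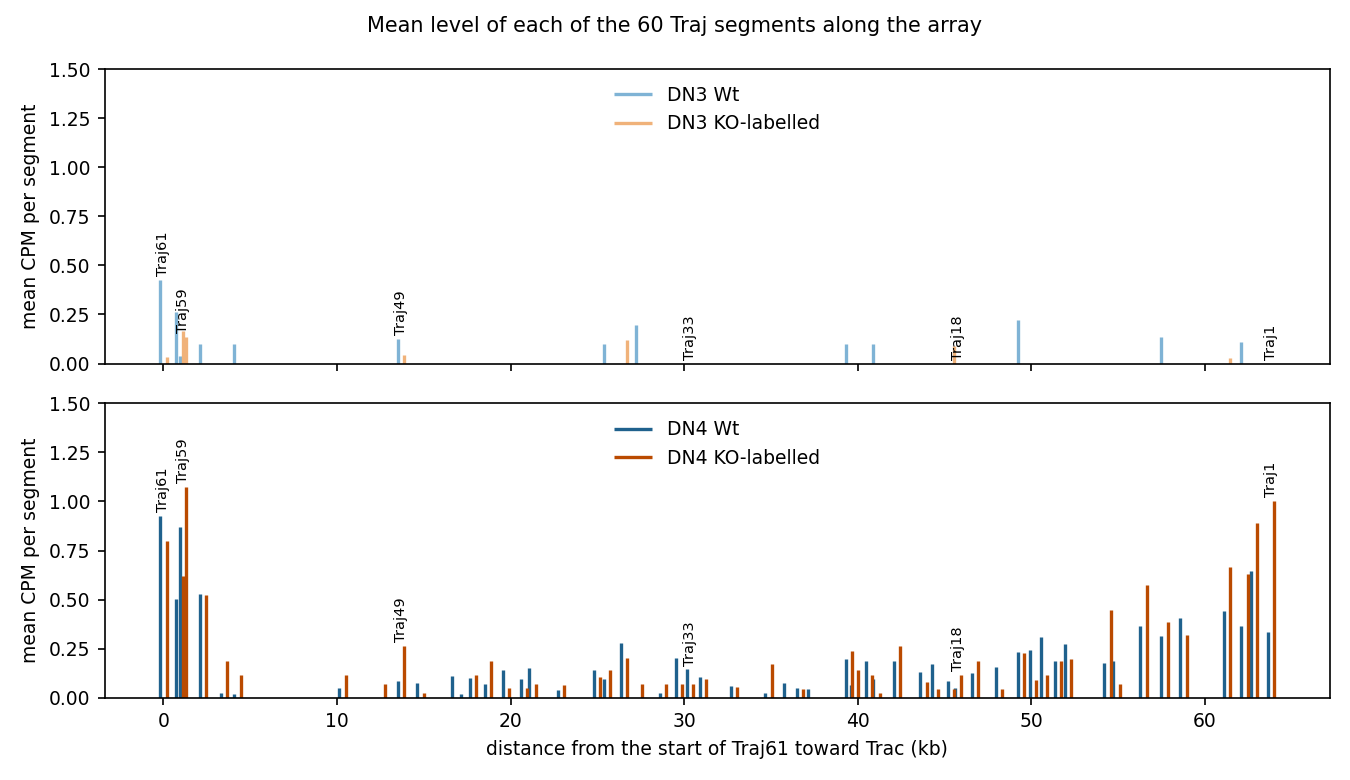
Mean CPM of each of the 60 Traj by distance in kb from the start of Traj61 toward Trac, in DN3 (upper) and DN4 (lower), Wt and KO-labelled lines set side by side on the same linear axis. DN3 is near 0 along the whole array, and in DN4 the taller lines stand at both ends.

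The Trav, in contrast, had a standing DN3 level. Their 128 members summed to 20.7, 30.3 and 24.3 CPM in DN3 of Wt05, Wt46 and Wt48 and to 28.8, 23.3 and 27.9 CPM in DN3 of KO45, KO49 and KO51. In DN4 the sums were 95.8, 115, 110 and 70.1 CPM in Wt05, Wt40, Wt46 and Wt48, and 122, 76.6 and 71.9 CPM in KO45, KO49 and KO51. The stages did not overlap, and within mice the ratio ran from 2.58 (KO51) to 4.62 (Wt05), below the ratio of Trac in every mouse. A library detected 25 to 29 members (at least 1 count) in DN3 Wt and 23 to 31 in DN3 KO, and 73 to 120 in DN4 Wt and 88 to 125 in DN4 KO. With every library thinned to 5926848 counts the means were 24.3 and 23.1 in DN3 and 90.4 and 93.3 in DN4.

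In Wt, 27 of 189 members passed the filter (26 Trav and Trac) and 23 of them (22 Trav and Trac) were called higher in DN4, none lower, where 13.4% of 12691 genes tested were called higher and 9.43% lower. In KO, 17 members passed (16 Trav and Trac), 12 were called higher and 2 lower, where 11.2% of 12580 genes were called higher and 7.34% lower. The filter itself fixes much of this direction. The level it asks for (10 counts at the median library total) was reached in all 3 DN3 libraries by 5 of the 27 members in Wt, namely Trac, Trav15-2-dv6-2, Trav15-1-dv6-1, Trav21-dv12 and Trav17, and in no DN3 library by 16. In KO it was reached in all 3 DN3 libraries by 6 of 17, namely Trac, Trav15-2-dv6-2, Trav15-1-dv6-1, Trav14-1, Trav17 and Trav18, and in none by 6. Members that passed through DN4 could hardly be called lower, so their calls lend no support to a rise of the members as a group. Of the members called higher, 11 were shared, 47.8% of the Wt calls and 91.7% of the KO calls, with different numbers tested. With neither filter nor test, levels from counts pooled over each group were higher in DN4 for 128 of 136 members with a count in Wt (94.1%). In KO they were higher for 129 of 133 (97.0%), against 52.2% (Wt) and 52.5% (KO) of all genes with a count. Of the members with a count, 89 in Wt (65.4%) and 92 in KO (69.2%) were counted in DN4 libraries only, against 14.6% and 13.2% of all genes with a count. All DN4 libraries lay above all DN3 libraries for 49 members in Wt (36.0%) and 68 in KO (51.1%), against 13.6% and 16.3% of all genes, and below for 0 and 2 members, against 9.65% and 11.1% of all genes. With the mouse as a block, which leaves out Wt40, 14 members passed in Wt and 9 were called, 8 higher and 1 lower (Trav18). Without 1 library the Wt count fell to 9 (DN4 Wt40 or Wt46), 10 (DN4 Wt05), 11 (DN3 Wt46) or 15 (DN3 Wt48), was 22 without DN4 Wt48 and rose to 27 without DN3 Wt05.

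**Figure D4:**
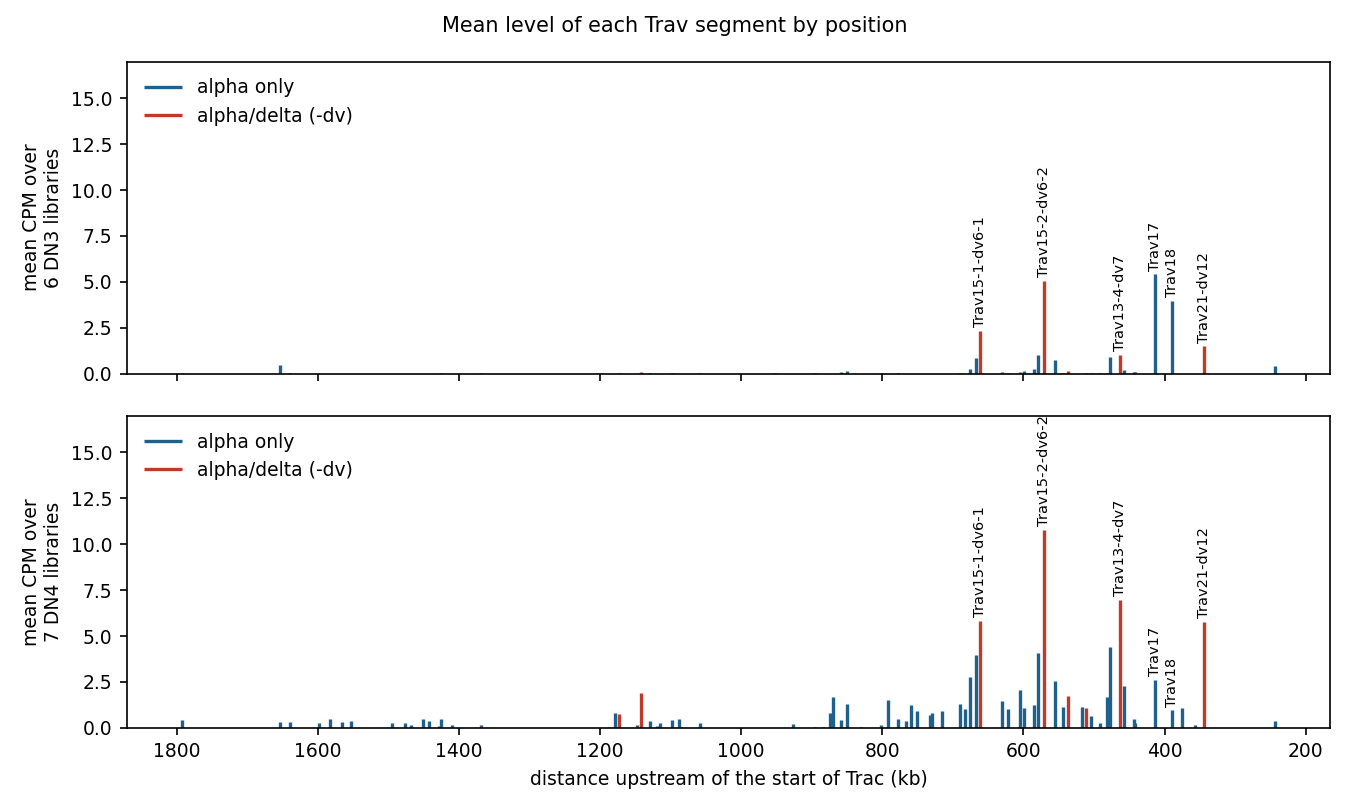
Mean CPM of each of the 128 Trav over the 6 DN3 (upper) and 7 DN4 (lower) libraries by distance upstream of the start of Trac in kb (far end at the left), linear axes, with -dv segments in red. In DN3 the lines above 2 CPM are Trav15-1-dv6-1, Trav15-2-dv6-2, Trav17 and Trav18, and in DN4 segments over the whole cluster have a level while Trav17 and Trav18 are lower.

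Among the alpha-only V segments, those with no DN3 count at all included Trav16n, Trav6-3, Trav5-4 and Trav19. Trav16n had 22, 32, 31 and 5 counts in DN4 of Wt05, Wt40, Wt46 and Wt48 and 24, 15 and 10 counts in DN4 of KO45, KO49 and KO51. This was at least 15.9-fold (Wt) and at least 12.7-fold (KO) above the floor of 3 counts over the DN3 group, from pooled counts as for Traj2. Trav6-3 had 18, 21, 27 and 9 counts in DN4 Wt and 35, 11 and 7 in DN4 KO, at least 13.3-fold and 13.7-fold above the floor. The KO bound leaned on KO45, which held 35 of the 53 counts. Trav5-4 and Trav19 were at least 12.04-fold and 10.6-fold above the floor in Wt. All 4 entered the test in Wt through their DN4 counts alone, so their calls are not given as support. In the DN4 library of Wt48 each of these 4 segments had its fewest Wt counts (5, 9, 3 and 3).

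Others had a trace in DN3 in at least one genotype, and since they too passed the filter through DN4 they are given by counts and ratios. Trav13-1 had 0, 2 and 0 counts in DN3 Wt, 7, 5 and 0 in DN3 KO, 27, 44, 42 and 20 in DN4 Wt and 51, 24 and 21 in DN4 KO. The ratio of DN4 to DN3 in Wt was 35.3 (exact 95% counting interval 9.59 to 295). Trav12-2 lay at 0.09 ± 0.15 CPM in DN3 Wt and 2.38 ± 1.68 CPM in DN4 Wt (SD, n = 3 and 4). Its DN4 counts ran from 4 in Wt48 to 51 in Wt46. Trav7-5 and Trav4-3, each with 1 count in DN3 Wt and 62 and 47 counts in DN4 Wt, had ratios of 32.9 and 25.0 (counting intervals 5.70 to 1322 and 4.27 to 1007). Trav8-2, annotated as a pseudogene, had 0, 0, 0 and 0, 2, 0 counts in DN3 and 22, 18, 31, 9 and 31, 18, 15 counts in DN4.

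Of the 10 -dv segments, V genes that can join to either delta or alpha, 4 already had a level in DN3, and the other 6 had 0 to 4 counts over each DN3 group. Trav15-2-dv6-2, the most counted Trav with 1158 counts, lay at 4.68, 4.33 and 4.40 CPM in DN3 of Wt05, Wt46 and Wt48 and at 4.36, 5.05 and 7.44 CPM in DN3 of KO45, KO49 and KO51. Its DN4 levels were 11.1, 9.35, 8.59 and 15.6 CPM in Wt and 7.79, 11.7 and 11.3 CPM in KO, with the top value in Wt48. It rose by 1.30 ± 0.26 on the log2 scale in Wt (adjusted p = 0.00909, edgeR's quasi-likelihood test), and the change of 0.85 ± 0.29 in KO missed the threshold (adjusted p = 0.0768) except with the mouse as a block (log2 change 0.85), with DESeq2 and with all 13 libraries in one fit. Trav13-4-dv7 lay at 0.292 to 1.98 CPM in the 6 DN3 libraries and at 7.57, 4.77, 5.199 and 13.3 CPM in DN4 of Wt05, Wt40, Wt46 and Wt48, and 4.65, 7.39 and 5.97 CPM in DN4 of KO45, KO49 and KO51. It reached the filter level in 2 of 3 DN3 libraries in Wt and 1 of 3 in KO, so it passed with the help of DN4 and its calls are not given as support. No DN4 library overlapped a DN3 library, and again Wt48 held the highest level.

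Trav15-1-dv6-1 lay at 1.46 to 3.04 CPM in DN3 and 4.68 to 7.11 CPM in DN4, with log2 changes of 1.34 in Wt and 1.31 in KO, both called. The Wt call was lost without the DN3 library of Wt46 or Wt48, and the KO call without any 1 of 5 of the 6 libraries. Trav21-dv12, the -dv segment nearest to the J array, lay at 1.80 ± 0.42 CPM in DN3 Wt and 6.10 ± 0.92 CPM in DN4 Wt. Its DN3 KO levels were spread widely, at 2.80, 0.133 and 0.588 CPM. It was called in Wt (log2 change 1.75, adjusted p = 0.00408, edgeR's quasi-likelihood test). In KO it reached the filter level in 1 of 3 DN3 libraries and was not called (log2 change 2.04, adjusted p = 0.0922, the same test), and a call under an alternative is no support there, since it passed through DN4. Among the 6 at or near 0 in DN3, Trav14d-3-dv8 had few counts there (0, 2 and 0 counts in Wt, 2 in KO49 alone in KO). It had 10, 28, 23 and 12 counts in DN4 Wt and 54, 19 and 14 in DN4 KO. Trav4-4-dv10 had 4 and 2 counts in DN3 Wt and KO and 87 and 59 in DN4. Trav6-7-dv9 had 0 counts in DN3 Wt and 69 in DN4 Wt, at least 12.2-fold above the floor, and 4 and 21 counts in KO. Trav16d-dv11 had 0 and 1 counts in DN3 Wt and KO and 49 and 13 in DN4, and Trav15d-1-dv6d-1 and Trav15d-2-dv6d-2 had 0 in all 13 libraries. All 10 -dv segments took 39.7 ± 14.4% of the Trav counts in DN4 Wt, with 60.3% in Wt48 (417 of 692 counts; 95% Wilson interval 56.6 to 63.8%), and 38.0 ± 10.3% in DN4 KO.

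Trav17 and Trav18 were the 2 V segments called lower in DN4, both in KO. Trav18 lies outside the rule by which segments were chosen for naming and was taken up after its values were seen. Trav17 lay at 3.51, 7.34 and 4.40 CPM in DN3 of Wt05, Wt46 and Wt48 and at 6.67, 5.05 and 5.49 CPM in DN3 of KO45, KO49 and KO51. In DN4 it lay at 2.495, 3.51, 2.91 and 2.43 CPM in Wt and 3.22, 2.00 and 1.79 CPM in KO. The KO groups did not overlap, and in Wt the DN4 library of Wt40 met the DN3 library of Wt05. It fell by 1.32 on the log2 scale in KO (SE 0.32, adjusted p = 0.0263, edgeR's quasi-likelihood test), a call lost without any 1 of 5 of the 6 libraries. In Wt the change was -0.90 ± 0.32 (adjusted p = 0.0813), called only without the DN3 library of Wt05 (-1.08). Trav18 lay at 1.17, 4.77 and 3.85 CPM in DN3 Wt and 3.05, 5.45 and 5.49 CPM in DN3 KO, and at 0.416, 0.682, 1.97 and 0.506 CPM in DN4 Wt and 1.001, 0.967 and 1.09 CPM in DN4 KO. It fell by 2.19 on the log2 scale in KO (SE 0.36, adjusted p = 0.00521, the same test), and in Wt the change was -1.93 ± 0.63 (adjusted p = 0.0586), called with the mouse as a block (-1.86), with DESeq2 (-1.91), with all 13 libraries in one fit (-1.90) and without the DN3 library of Wt05 (-2.26). The sum of both was lower in DN4 in each of the 6 mice with both stages, at 0.263 (KO51) to 0.623 (Wt05) of the DN3 level.

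Per kb of exon, over all libraries of a stage, Trav17 and Trav18 stood at 15.9 and 12.1 CPM per kb in DN3, beside 13.6 for Trav15-2-dv6-2 and 10.4 for Trac. In DN4 the same 4 stood at 7.69, 2.89, 29.2 and 201 CPM per kb, so that Trac changed from the lowest of these levels to the highest. Both genes lie among the 10 Trav nearest to the J array, at starts 413882 and 389416 bases before Trac. These 10 took 43.1 ± 3.26% of Trav counts in DN3 Wt and 45.1 ± 2.59% in DN3 KO (SD, n = 3 each), and 12.5 ± 1.19% in DN4 Wt (n = 4) and 12.2 ± 0.284% in DN4 KO (n = 3), with no overlap of the stages. The share fell while the summed level of the 10 did not differ beyond its spread, at 10.9 ± 2.85 and 12.01 ± 1.39 CPM in DN3 Wt and KO and 12.3 ± 2.97 and 11.0 ± 3.41 CPM in DN4. This sum joined opposite changes, since Trav17 and Trav18 were lower in DN4 and the other 8 were higher. These 8 summed to 2.55 ± 1.35 and 1.61 ± 1.90 CPM in DN3 Wt and KO and to 8.52 ± 2.05 and 7.65 ± 2.67 CPM in DN4. The other 118 Trav summed to 14.2 ± 2.11 and 14.7 ± 1.92 CPM in DN3 and 85.5 ± 17.5 and 79.1 ± 24.1 CPM in DN4. Trav17 and Trav18 alone made 32.1 ± 8.84% and 39.4 ± 5.71% of the Trav counts in DN3 and 3.83 ± 0.624% and 3.78 ± 0.284% in DN4. Taking the 20 nearest instead gave 55.1 and 52.0% in DN3 and 36.7 and 34.0% in DN4.

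The genotype comparison asks whether loss of Opa1 changed alpha locus transcripts at either stage. No member was called, in edgeR, in DESeq2 or under any alternative. In DN3, 8 members passed the filter and 0 were called, with 1 (Trac) at an unadjusted p under 0.05, where 0% of 12105 genes were called. In DN4, 39 passed and 0 were called, with 1 (Trav6-7-dv9) at an unadjusted p under 0.05, where 0.0535% of 13084 genes (7) were called. The test of whether the change from DN3 to DN4 differed between genotypes called 0 of 37 members, with 1 (Trav6-7-dv9) under 0.05 unadjusted, where 0% of 13361 genes were called.

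Trac in DN3 was 13.03 ± 1.82 CPM in KO and 6.497 ± 0.659 CPM in Wt (SD, n = 3 each), and the 3 KO libraries lay above the 3 Wt libraries. The log2 difference was 0.99 ± 0.22 (unadjusted p = 0.00203, adjusted p = 0.99996, edgeR's quasi-likelihood test), and the exact two-sided permutation test over the 6 libraries gave p = 0.1, the smallest it can give with 3 against 3. The median of all genes was -0.01 in this comparison and 0.23 when libraries were scaled by their totals, where the difference of Trac was 1.21. Cd2 was also higher in DN3 KO (11.3, 24.3 and 12.7 CPM) than in DN3 Wt (7.01, 6.72 and 10.6 CPM). It made up most of the DN4 list of Cd2 and Cd7, which summed to 17.2 ± 6.88 CPM in DN3 KO and 9.03 ± 1.91 CPM in DN3 Wt. The DN3 list summed to 1476 ± 325 CPM in DN3 KO and 1235 ± 406 CPM in DN3 Wt, and the genotypes overlapped. The part of these markers in the Trac difference was not tested. In DN4, Trac stood at 187 ± 76.8 CPM in KO (n = 3) and 189 ± 92.9 CPM in Wt (n = 4), a log2 difference of -0.01 ± 0.44 (adjusted p = 0.999; exact two-sided permutation p = 0.971), whose sign changed with the library left out. The change from DN3 to DN4 was smaller in KO by 1.01 ± 0.59 on the log2 scale (unadjusted p = 0.113, adjusted p = 0.99996, the same test). Trav6-7-dv9 in DN4 had 19, 16, 31 and 3 counts in Wt and 10, 7 and 4 in KO (log2 difference -1.44 ± 0.62, unadjusted p = 0.0493, adjusted p = 0.887, the same test), and the groups overlapped through Wt48.

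Genes that act on the locus were counted by list. Among all genes tested, 13.4% were called higher and 9.43% lower in Wt, and 11.2% and 7.34% in KO, and no list was tested against these shares. Of 15 genes of the recombinase and of end joining, 0 were called higher and 2 lower in each stage comparison. Dntt, the terminal transferase that adds untemplated bases at joints, was lower in DN4 in both (log2 change -1.15 in Wt and -0.71 in KO), joined by the Ku subunit Xrcc6 in Wt (-0.72) and its partner Xrcc5 in KO (-0.42). Rag1, which cuts at the segments, lay at 605 to 1005 CPM in DN3 and 251 (Wt48) to 1588 CPM (KO45) in DN4, with changes of -0.70 and 0.50 that were not called. Of 21 genes on a list of alpha enhancer factors, their regulators and locus organisers, 2 were called higher and 3 lower in Wt and 4 higher and 1 lower in KO. Ets1 (0.56 and 0.67) and Id3 (1.79 and 1.42) were higher in both, while Runx1 was lower in both (-1.46 and -1.18).

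Of 13 partners and coreceptors of the receptor, 6 were called higher and 2 lower in each genotype. For this list and the 2 that follow, the shares over all genes tested were again 13.4% higher and 9.43% lower in Wt, and 11.2% and 7.34% in KO. Ptcra, the surrogate alpha chain of the pre-T cell receptor, fell by 2.13 in Wt and by 1.65 in KO on the log2 scale (adjusted p = 0.00178 and 0.00133, edgeR's quasi-likelihood test), from 76.0 to 157 CPM in DN3 to 17.8 to 52.0 CPM in DN4. Trbc1, a beta constant gene, changed by 0.13 and 0.30 and was not called. Of 11 delta genes inside the locus 6 passed the filter, and 4 were called higher in Wt, and 3 higher and 1 lower in KO. The lower one was the joining segment Trdj1 (log2 change -1.26 in KO, -0.20 and not called in Wt). Trdc was 0.77 higher in Wt, called, and 0.21 higher in KO, not called. Of 15 tested genes that flank the locus, 2 were called higher and 1 lower in Wt and 2 higher in KO, and Dad1, the first gene past the enhancer, changed by 0.33 and 0.14 and was not called. None of these lists held a gene called between genotypes.

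Trav that share most of their sequence with another gene held few counts. Stretches of the V cluster of C57BL/6 are duplicated, and many V segments exist in copies with the suffix d or n beside one without suffix. Of the 46 Trav in which at least 90% of all stretches of 50 bases also occur in another gene, 36 had no count in any library, and the 46 together held 43 counts, 0.457% of all Trav counts. Of the 15 Trav with under 10% shared sequence 3 had no count, and of the 67 between these limits 4 had none. By copy, 20 of 39 d copies and 18 of 34 n copies had no count, against 5 of 55 without suffix. The 39 d and 34 n copies summed to 6.14 ± 2.81 and 6.76 ± 3.85 CPM in DN4 Wt, against a sum of 84.9 ± 13.6 CPM over the 55 segments without suffix. In all, 43 Trav and 4 Traj had no count in any library, so 142 of 189 members had one. How reads that match several genes, or that reach from a J segment into Trac, were counted is not given in the sources used here, so levels of Trav with shared copies are uncertain, and reads that were not assigned cannot be told apart from low expression.

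**Figure D5:**
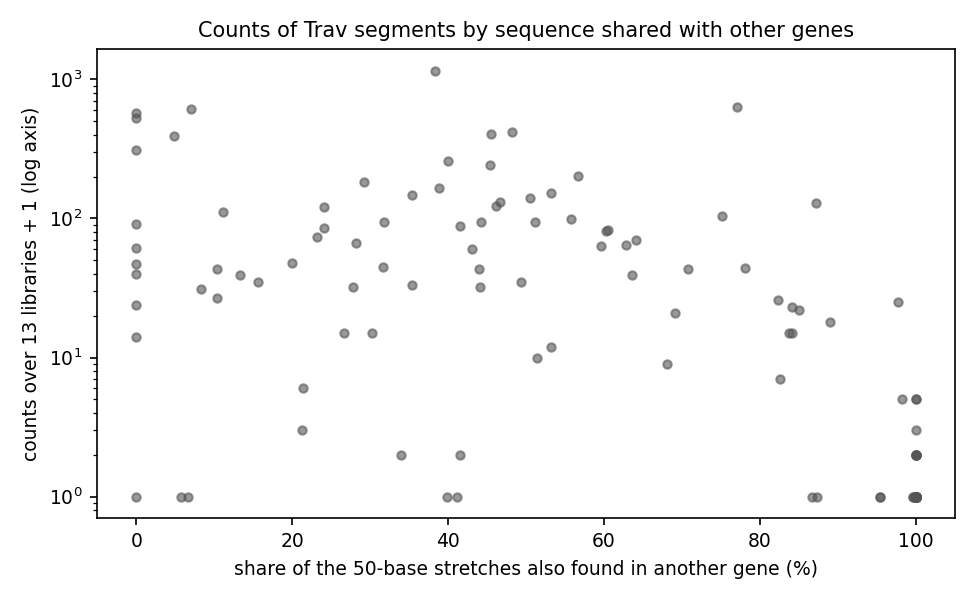
Counts over all 13 libraries (plus 1, log axis) of each of the 128 Trav against the share of its 50-base stretches that also occur in another gene (%). Points at 100% lie at or near 0 counts, and points below 80% reach 1158 counts.

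The segments of invariant T cells had few counts or none. Trav11 and Trav11d, the V segments of the NKT cell receptor whose ends are shown above, share 100% of their 50-base stretches with other genes and had 0 counts in all 13 libraries. Their usual partner Traj18 had 0 counts in the 6 DN3 libraries, 0, 2, 0 and 0 in DN4 Wt and 3, 2 and 0 in DN4 KO. Trav1, the V segment of the mucosal-associated invariant T cell receptor, shares none of its sequence and had 1 count each in DN3 of Wt46 and KO51. In DN4 it had 4, 5, 5 and 2 counts in Wt and 13, 5 and 3 in KO. Its partner Traj33 had no DN3 count and 1, 3, 0 and 2 counts in DN4 Wt and 2, 1 and 0 in DN4 KO. At these counts no difference between genotypes was detectable for any of the 5.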

How the data were processed

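RNA-seq of 13 libraries of sorted thymocytes was analysed. Per the labels, poly(A) libraries were made with a strand-specific kit and sequenced on a HiSeq 3000. The deposited table holds raw counts per gene, and the submitters' processing notes name STAR, featureCounts, DESeq2, deepTools and mm10. The strand setting, the treatment of multiply mapped reads and the read length are not given in the sources used here. Gene identifiers were matched without version to GENCODE M21 (47310 of 47937). The members, the gene lists and the tests were chosen with earlier results of these data known.

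Counts were tested with edgeR 4.0.16 in R 4.3.3 (quasi-likelihood test, filterByExpr with a minimum count of 10, TMM scaling) on the whole table, one fit per pair of groups and an interaction fit over all 4 groups. Adjusted p-values are Benjamini-Hochberg over all genes tested, with a threshold of 0.05. DESeq2 1.42.0, 2 other scalings, 2 other filters, 1 fit of all 13 libraries, a block for the mouse and the removal of each library in turn were alternatives. The fits were tested on simulated data. Sums and shares over members were given no test. Mean and SD are over mice, each of which gave 1 library per stage. Intervals cover counting error only, since reads without molecular identifiers are not independent molecules.

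Same-numbered DN3 and DN4 libraries carry one animal's number in their titles. Their deviations from the group means correlated at 0.460, 0.213 and 0.331 for KO45, KO49 and KO51 and at 0.145, 0.124 and 0.182 for Wt05, Wt46 and Wt48, over 13361 genes. The number was therefore used as a pairing in the within-mouse ratios and in the block for the mouse. The main stage tests did not use it and were unpaired.

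Segments were named by this rule: Trac, the 5 Traj and 5 Trav with the largest mean CPM, up to 10 of each called and not overlapping between stages in Wt, any member called between genotypes, Traj61 and Traj49, the -dv segments that passed the filter, and the segments of NKT and mucosal-associated invariant T cells. A fold against a group with no count used a floor of 3 counts over the group. Shared sequence was counted over stretches of 50 bases in all GENCODE transcripts. The Gamma delta T list lost Trgc1 and Trgc2, and the flanking list 1 gene, whose symbols were not matched in the table. A gene of the marker and factor lists is not reported here, and the sums and counts leave it out.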

Additional observations from a re-analysis of the deposited data

Results flagged for a closer look

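Of 38 sums, shares and named segments screened in the 4 DN4 Wt libraries, 4 had 1 library far from the other 3 by Dixon's test, where chance gives about 1 in 20. Of the Traj counts of Wt48, 44.6% fell on Traj61 to Traj49, the highest share of the 4. The same library had the lowest level of Traj61, 0.608 CPM from 6 counts. Trav15-1-dv6-1 was lowest in Wt40, at 4.68 CPM. Traj18 was counted only in Wt40, at 0.195 CPM from 2 counts. With the other 3 libraries at 0 any count would stand apart, so this one says nothing and does not belong in the comparison with chance. No explanation was tested.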

How the results depend on the processing

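The number of members called from DN3 to DN4 in Wt was 23, and became 3 where at least 10 counts in every library were required and 9 with the mouse as a replicate block. Leaving out 1 library gave 9 to 27. In KO the number was 14, and became 47 with no filter beyond 1 count, 4 with at least 10 counts in every library and 31 with all 13 libraries in one fit, while the replicate block gave 17, all 14 calls included, and leaving out 1 library gave 11 to 14. The counts of members that passed moved with these settings, from 4 to 136 in Wt and from 5 to 133 in KO. The replicate block changed the calls of Trav18 in Wt and of Trav15-2-dv6-2 and Trav21-dv12 in KO, and no other call of a named segment that could be fitted.

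Between genotypes, 0 members were called under every alternative. The log2 difference of Trac in DN4, -0.01, changed sign to 0.026 with library totals, 0.017 with at least 10 counts in every library, and lay from -0.39 to 0.26 without single libraries, never near the threshold (positive without KO49, 0.22, KO51, 0.16, Wt40, 0.26, or Wt46, 0.14); the cause was not tested.

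Without Traj59, the most counted Traj, the share on Traj61 to Traj49 was 23.1% in DN4 KO. Without Trav15-2-dv6-2 the share on the 10 nearest Trav was 52.7, 57.3, 14.4 and 13.98% in DN3 Wt, DN3 KO, DN4 Wt and DN4 KO, and with the 20 nearest it was 55.1, 52.0, 36.7 and 34.0%. Thinning moved the members detected in DN3 Wt to 24.3.

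Scaling by library totals moved the median of all genes from -0.03 to 0.16 in the Wt stage comparison, from -0.01 to 0.23 in the DN3 genotype comparison and from -0.02 to -0.20 in the interaction, and the share of higher among called genes in the Wt stage comparison from 58.8 to 77.8%. The Wt and KO member counts were then 22 and 13. Of the other values for named segments, 347 kept their direction and side of the threshold, 13 gained a call and 33 lost one. None of the Traj passed the filter between stages, and the parts of depth, exon length and read assignment in this were not tested.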
